A study of Mus musculus with 4 samples.

Results

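The scavenger and perivascular macrophage genes described here are 10 genes chosen by symbol, namely Mrc1, Stab1, Lyve1, Cd163, Folr2, Msr1, Cd36, Cd93, Cbr2 and F13a1. They were chosen with earlier results of these data known, so the shares of all genes given beside them are no test of the group. All 10 had a row in the deposited tables, which hold 15690 genes other than ERCC spike-in rows, and 8 of them averaged at least 20 CPM (transcripts per 1000000 counted) over the plates, as did 6076 genes in all (Lyve1 and Cd163 did not). The study profiled single myeloid cells sorted from mouse brains carrying lung cancer brain metastases, to describe the variety of microglia and macrophages there and, going by the labels, how it looks after whole brain radiation therapy (WBRT). The mice were Balb/C athymic nude animals of the strain CAnN.Cg-Foxn1nu/Crl, which carries the Foxn1 nude mutation and lacks most T cells, so every plate comes from this background. The 4 groups were BMDM with WBRT, BMDM without WBRT, microglia with WBRT and microglia without WBRT. BMDM commonly stands for macrophages derived from bone marrow. The WBRT label reads d3 and 5 fractions of 2 Gy, and the labels used here do not say from which event day 3 is counted. The tumor stage label was not stratified for both irradiated plates and small for both unirradiated plates. Each group is 1 plate of 384 wells with no animals named, so there was no replicate, no test was made, and plate, tumor stage label and treatment cannot be told apart. A member is said below to be doubled or halved on a plate when its CPM + 5 differed at least 2-fold from that of the other plate, and all intervals are at 95% and hold for counting error alone.

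Scavenger receptors bind modified lipoproteins, sugars, dying cells or carrier proteins at the cell surface and bring them into the lysosome. In the brain a set of them marks the macrophages that line blood vessels and the meninges, which differ in this from resting parenchymal microglia. Cbr2, a carbonyl reductase, and F13a1, the A subunit of the cross-linking enzyme coagulation factor XIII, are no receptors, but they are commonly used beside Mrc1 and Lyve1 to mark tissue macrophages of this kind in mice.

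After filtering, 262 wells of irradiated BMDM, 234 of unirradiated BMDM, 151 of irradiated microglia and 157 of unirradiated microglia remained, with 649107 to 2513025 transcripts per plate. The median well held 8894 transcripts in irradiated BMDM, 4388 in unirradiated BMDM, 2546 in irradiated microglia and 4789 in unirradiated microglia, and shares of wells are therefore also given after each well was thinned to 1000 UMIs (unique molecular identifiers). Irradiated microglia stood apart by a median ERCC share of 30.6%, against 6.92% to 7.86% on the other plates. More of their wells were low in Malat1, a nuclear RNA, with 70.2% under 1000 CPM, against 44.6% in unirradiated microglia, although the pooled level was 2999 against 2114 CPM. The monocyte receptor gene Ccr2 separated the sorts, with 969 and 389 CPM in irradiated and unirradiated BMDM against 6.16 and 0 CPM in irradiated and unirradiated microglia. The microglial gene Tmem119 separated them less. It had 177 and 115 CPM in irradiated and unirradiated BMDM, against 583 and 514 CPM in irradiated and unirradiated microglia. As counted, 45.0% of irradiated and 23.9% of unirradiated BMDM wells held a UMI of it, beside 49.7% of irradiated and 73.9% of unirradiated microglia wells. At 1000 UMIs per well these shares were 10.3%, 7.26%, 29.1% and 31.2%. Wells with at least 2 UMIs of dendritic cell markers made up 19.1% of irradiated and 65.8% of unirradiated BMDM, so the BMDM plates also differed in dendritic marker transcripts. In unirradiated BMDM Fscn1 led that list, in 62.8% of wells, with Flt3 in 33.8%, Ccr7 in 32.9% and Zbtb46 in 2.14%. Fscn1 was also in 52.3% of irradiated and 54.1% of unirradiated microglia wells, so a marked well is not taken for a dendritic cell by that alone. Wells carry the same position names on all 4 plates, so a shared name does not identify a cell.

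RefSeq's promoter table for GRCm38.p6 held windows for 7 of the 10 members, 9 windows in all. The 250 bases before the start are shown for Mrc1, Stab1 and F13a1, which are 3 of the members doubled with WBRT in both sorts. In irradiated microglia most transcripts of Mrc1 and F13a1, but not of Stab1, lay in wells without Tmem119. Folr2, Msr1 and Cd93 were doubled in both sorts too, but the windows of Folr2 are not shown, and Msr1 and Cd93 had no window. Capitals mark the letters GGAAGT, the short core bound by ETS factors such as PU.1, on either strand (ACTTCC where it lies on the other strand). The windows are chr2:14229164-14229413 on the plus strand for Mrc1, chr14:31168642-31168891 on the minus strand for Stab1, and chr13:37049214-37049463 on the minus strand for the second of 2 F13a1 starts.
Mrc1: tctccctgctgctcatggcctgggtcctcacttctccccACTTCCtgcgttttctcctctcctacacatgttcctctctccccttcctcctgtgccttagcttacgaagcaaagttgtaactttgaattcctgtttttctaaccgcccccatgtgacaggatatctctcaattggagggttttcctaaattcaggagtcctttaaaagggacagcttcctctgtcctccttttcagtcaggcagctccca
Stab1: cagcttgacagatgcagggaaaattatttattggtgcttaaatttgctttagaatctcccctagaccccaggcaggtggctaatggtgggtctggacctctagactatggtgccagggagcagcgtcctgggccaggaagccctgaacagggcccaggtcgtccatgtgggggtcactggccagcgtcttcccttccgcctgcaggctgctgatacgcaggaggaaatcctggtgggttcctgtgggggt
F13a1: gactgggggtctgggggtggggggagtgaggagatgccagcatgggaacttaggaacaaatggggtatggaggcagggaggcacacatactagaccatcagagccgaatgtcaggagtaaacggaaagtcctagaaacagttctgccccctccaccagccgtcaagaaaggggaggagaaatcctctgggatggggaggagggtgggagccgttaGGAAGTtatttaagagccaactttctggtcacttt
The letters stood once in the Mrc1 window, at position -211 from the start, and once in the F13a1 window, at position -35, and not in the Stab1 window. Of the 9 windows, 4 held them, those of Mrc1, Folr2, F13a1 and Cd36, and the first Folr2 window held them 2 times. The window of the other F13a1 start, which is not shown, did not hold them. Across all 32851 windows of the table, cut to the same length, 19.7% held GGAAGT on either strand. The longer PU.1 core GAGGAAGT, which contains the shorter letters, stood in 2.44% of all windows and in none of the 9. These are matches of letters, and no binding was measured.

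Mrc1, the mannose receptor, was highest in irradiated BMDM with 937 transcripts or 373 CPM (interval 349 to 398). It had 158 CPM (137 to 182) in unirradiated BMDM, 84.8 CPM (63.8 to 110) in irradiated microglia and 18.3 CPM (10.5 to 29.7) in unirradiated microglia. No neighbours in that order overlapped in their intervals. A UMI of Mrc1 was found in 65.3% and 22.6% of irradiated and unirradiated BMDM wells, and in 15.9% and 7.64% of irradiated and unirradiated microglia wells. At 1000 UMIs per well the same shares were 26.0%, 8.97%, 6.62% and 1.27%, in the same order as the CPM. In unirradiated BMDM the gene was uneven, with 50% of its transcripts in 6 wells and 15.5% in 1 well.

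Stab1, which encodes stabilin-1, a receptor that clears extracellular cargo, was highest in irradiated BMDM too, at 568 CPM (539 to 598). Irradiated microglia followed with 319 CPM (277 to 365), ahead of unirradiated BMDM with 137 CPM (117 to 159) and unirradiated microglia with 73.2 CPM (56.3 to 93.4). Thus the microglia sort with WBRT lay above the BMDM sort without it, the reverse of the order for Mrc1. The thinned shares of wells ran the same way, at 34.0% in irradiated BMDM, 25.8% in irradiated microglia, 10.7% in unirradiated BMDM and 7.64% in unirradiated microglia. The last bases of Stab1 overlap Nt5dc2 on the opposite strand (GENCODE M21), and whether counting used the strand is not given in the sources used here. Nt5dc2 itself had 30.2, 17.4, 15.4 and 36.6 CPM in irradiated BMDM, unirradiated BMDM, irradiated microglia and unirradiated microglia.

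Lyve1, a hyaluronan receptor, and Cd163, the receptor for hemoglobin bound to haptoglobin, were barely detected. Lyve1 had 5 transcripts in irradiated and 7 in unirradiated BMDM, and 4 in irradiated and 0 in unirradiated microglia. Of the 7 in unirradiated BMDM, 6 came from 1 well, and all 4 in irradiated microglia came from 1 well. Cd163 had 14 and 7 transcripts in irradiated and unirradiated BMDM and 5 and 2 in irradiated and unirradiated microglia. Its levels were 5.57, 5.53, 7.70 and 2.29 CPM in that order, and all 4 intervals overlap. A count of 3 on a plate, taken as the floor for a gene at 0, corresponds to 1.19 to 4.62 CPM, so differences in these 2 genes were not resolved at this depth.

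Folr2, folate receptor beta, differed widely between the BMDM plates. It had 188 transcripts, 74.8 CPM (64.5 to 86.3), in irradiated BMDM and 6 transcripts, 4.74 CPM (1.74 to 10.3), in unirradiated BMDM. Irradiated microglia had 63.2 CPM (45.3 to 85.7) and unirradiated microglia 18.3 CPM (10.5 to 29.7). The irradiated plates of both sorts therefore overlapped in their intervals and lay above both unirradiated plates, and of the unirradiated plates the microglia one was the higher. At equal depth the gene was in 6.49% of irradiated BMDM wells, 0.427% of unirradiated BMDM wells, 7.28% of irradiated microglia wells and 2.55% of unirradiated microglia wells.

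Msr1, the class A scavenger receptor that takes up modified lipoprotein, was in the most wells of the 10 on the irradiated BMDM plate, 81.3% as counted and 42.0% at 1000 UMIs. It had 503 CPM (476 to 532) there, 399 CPM (352 to 451) in irradiated microglia, 174 CPM (152 to 198) in unirradiated BMDM and 115 CPM (94.0 to 140) in unirradiated microglia. Both irradiated plates lay above both unirradiated plates, as for Stab1 and Folr2. Cd36, a class B scavenger receptor and fatty acid transporter, was low throughout, at 18.3 CPM (13.4 to 24.4) in irradiated BMDM, 29.2 CPM (20.6 to 40.3) in unirradiated BMDM, 27.7 CPM (16.4 to 43.8) in irradiated microglia and 16.0 CPM (8.75 to 26.9) in unirradiated microglia. Its intervals overlapped on all 4 plates.

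Cd93, a C-type-lectin-like receptor linked to the clearance of dying cells, had most of its transcripts in irradiated BMDM, with 1377 transcripts or 548 CPM (519 to 578). Unirradiated BMDM had 59.3 CPM (46.6 to 74.3), irradiated microglia 17 transcripts or 26.2 CPM (15.3 to 41.9), and unirradiated microglia 0 transcripts in 157 wells. The interval of that 0 reaches 4.22 CPM. F13a1 had the same order of plates, with 435 CPM (410 to 462) in irradiated BMDM, 68.0 CPM (54.3 to 83.9) in unirradiated BMDM, 46.2 CPM (31.2 to 66.0) in irradiated microglia and 4.57 CPM (1.25 to 11.7) in unirradiated microglia. Its middle plates overlapped in their intervals. Cbr2 had 103 CPM (90.5 to 116) in irradiated BMDM, 20.5 CPM (13.4 to 30.1) in unirradiated BMDM, and 6 transcripts on each microglia plate. Levels of different genes are per transcript counted and were not set against length.

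**Figure D1:**
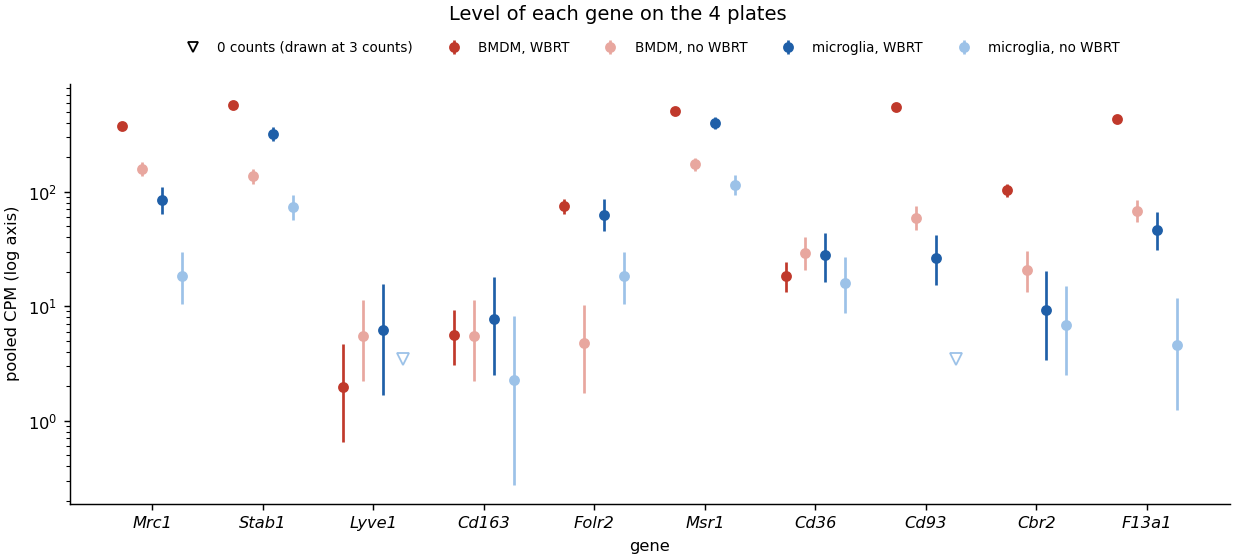
Pooled CPM (log axis) of the 10 genes on the 4 plates, drawn as points with 95% Poisson intervals, with open triangles at the floor of 3 counts for genes at 0. The irradiated BMDM plate is highest for 7 of the genes, and not for Lyve1, Cd163 and Cd36.

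With WBRT, 7 of the 10 members were doubled in BMDM and 0 were halved. Among all 6076 genes of at least 20 CPM, 4.56% were doubled and 4.94% were halved in this comparison. The fold was 15.8 for Folr2 (7.12 to 43.6), 9.25 for Cd93 (7.33 to 11.8), 6.40 for F13a1 (5.14 to 8.08) and 5.00 for Cbr2 (3.33 to 7.80). Stab1 was 4.15-fold higher (3.55 to 4.89), Msr1 2.89-fold (2.51 to 3.35) and Mrc1 2.36-fold (2.02 to 2.76). Among these 7, the largest folds belonged to genes at 4.74 to 68.0 CPM without WBRT, and the smallest to Mrc1 and Msr1, which had 158 and 174 CPM without WBRT. Cd36 went the other way without being halved, at 18.3 against 29.2 CPM (fold 0.626, 0.397 to 0.993). Over the 10 members the median log2 ratio was 1.76, and over all genes tested 0.08.

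The call for Mrc1 depended on wells with dendritic cell markers, a list led by Fscn1 in unirradiated BMDM. When wells with at least 2 UMIs of those markers were left out, 212 irradiated and 80 unirradiated BMDM wells remained. Mrc1 then had 389 CPM in irradiated and 316 CPM in unirradiated BMDM, 1.23-fold (1.0 to 1.54), a log2 ratio of 0.30, and was no longer doubled. The shares of wells with Mrc1 still differed, at 67.9% of irradiated and 23.75% of unirradiated wells as counted. Median depths were 8607 and 3261 transcripts, and the unirradiated level rested on 99 transcripts. Stab1 had 584 against 150 CPM, F13a1 516 against 143 CPM and Cd93 655 against 137 CPM in the same wells. Folr2 had 141 transcripts against 0. In wells with at least 2 dendritic UMIs, 50 with and 154 without WBRT, Mrc1 had 315 against 106 CPM. Thus 6 members were doubled and 2, Lyve1 and Cd36, were halved without those wells, beside 8.85% and 5.78% of all genes tested, and the median log2 ratio was 1.30. Lyve1 rested on 5 against 6 transcripts there, in 1.25% of the 80 unirradiated wells, and Cd36 on 29 against 12.

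Further genes of these groups were counted in the same way, beside the same 4.56% doubled and 4.94% halved among all genes tested. These lists, too, were chosen with earlier results of these data known. Of 20 further scavenger and clearance genes, 18 were in the tables, and in BMDM with WBRT 2 were doubled and 0 halved, with a median log2 ratio of 0.41. The doubled ones were Cd68, a lysosomal scavenger receptor family member, with 661 against 190 CPM, and Mertk, a receptor for dying cells, with 39.0 against 14.2 CPM. Of 20 further genes reported for perivascular and border macrophages, 19 were in the tables, of which 8 were doubled and 0 halved (median 0.65). They included Pf4, a CXC chemokine, with 388 against 23.7 CPM, Ms4a7 with 715 against 122 CPM, and Dab2, an endocytic adaptor, with 911 against 245 CPM. Among 12 receptors and transcription factors that act upstream of such genes, 3 were doubled and 1 halved (median 0.28). Maf, a transcription factor of tissue macrophages, had 396 against 193 CPM, and Nr1h3, the lipid sensor LXR alpha, 27.1 against 6.32 CPM.

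In microglia with WBRT 7 members were doubled and 0 halved, beside 7.09% and 6.29% of all genes tested. F13a1 was 10.1-fold higher (3.56 to 39.5), Mrc1 4.63-fold (2.62 to 8.66), Stab1 4.36-fold (3.28 to 5.86), Msr1 3.46-fold (2.74 to 4.39) and Folr2 3.45-fold (1.90 to 6.59). Cd93, with 17 transcripts against 0, was 7.64-fold higher against the floor of 3 counts on the unirradiated plate, and the interval of its fold began at 5.56. The seventh was Lyve1, which rests on the 4 transcripts of 1 well, and with genes at 0 set to the floor 6 members were doubled. The median log2 ratio was 1.65 either way, against 0.04 over all genes tested. Cbr2 had 9.24 against 6.86 CPM (fold 1.35, 0.360 to 5.04), and Cd36 27.7 against 16.0 CPM (fold 1.73, 0.814 to 3.76). These comparisons share no plate with those in BMDM, but both irradiated plates carry the same tumor stage label.

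Microglia wells were also split by their level of the nuclear RNA Malat1. In the wells with at least 1000 CPM of Malat1, 4 members were doubled with WBRT and 0 halved, beside 10.6% and 8.36% of all genes tested, and the median log2 ratio was 0.70 (0.51 with genes at 0 set to the floor). Folr2 and Cd93 were no longer doubled there, with log2 ratios of 0.71 and 0.69, and Lyve1 had no transcripts on either plate. Folr2 rested on 8 transcripts on each plate (fold 1.89, 0.617 to 5.76) and Cd93 on 1 against 0. For Folr2 the fold in wells under 1000 CPM was 3.30 (1.49 to 8.26), so a difference between the 2 kinds of wells was not resolved. The part of Malat1 and of the ERCC share in the difference between the microglia plates was not tested. In the wells under 1000 CPM, 106 with and 70 without WBRT, 8 members were doubled, 0 were halved and the median was 1.82, or 6 and 1.64 with the floor, beside 12% of all genes tested doubled and 16.4% halved. The dendritic marker counts of the microglia plates were mostly of Fscn1 (200 transcripts with WBRT and 230 without), with Flt3, Zbtb46 and Cd209a at 0, so wells marked by that list are not taken for dendritic cells there.

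The further gene groups split in microglia, where 7.09% of all genes tested were doubled and 6.29% halved with WBRT. Of the 18 scavenger and clearance genes, 3 were doubled and 1 was halved with WBRT (median 0.13), with Cd68 at 606 against 271 CPM, Mertk at 86.3 against 36.6 CPM and Scarf2, a scavenger receptor family member, at 3.08 against 27.4 CPM. Of the 19 perivascular genes, 5 were doubled and 1 was halved, and their median log2 ratio was 0.00. Ms4a7 had 117 against 8.0 CPM, Cd38 97.1 against 9.15 CPM, Pf4 67.8 against 5.72 CPM and Dab2 388 against 88.1 CPM. Siglec1, a sialic acid binding receptor of border macrophages, was halved, at 83.2 against 191 CPM. Of the 12 upstream genes 1 was doubled and 0 were halved (median 0.04). Some doubled genes rest on few transcripts, with Cd5l of the scavenger list at 9 against 1 and Clec12a of the perivascular list at 4 against 0. The doubled upstream gene, Nr1h3, had 9 against 0.

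Between the sorts with WBRT, 4 members were doubled in BMDM over microglia and 0 were halved, beside 7.59% and 5.41% of all genes tested. Cd93 was 20.9-fold higher in BMDM (13 to 36.0), Cbr2 11.1-fold (5.03 to 30.5), F13a1 9.42-fold (6.56 to 14.0) and Mrc1 4.40-fold (3.35 to 5.89). Stab1 was 1.78-fold higher (1.54 to 2.07), Msr1 1.26-fold (1.10 to 1.45) and Folr2 1.18-fold (0.841 to 1.70), none of them doubled. Without wells under 1000 CPM of Malat1, however, Stab1 and Folr2 were doubled, with log2 ratios of 1.10 and 1.27, and Stab1 was also doubled in wells of at least 3000 counts (1.015). Folr2 turned to -0.25 without wells marked by the dendritic list. The median log2 ratio was 0.58, against 0.10 over all genes tested. In this comparison the perivascular list had 10 genes doubled and 0 halved (median 1.05), led by Tgfbi, a secreted matrix protein, while the scavenger list had 1 doubled and 1 halved (median 0.16).

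Without WBRT 5 members were doubled and 1 was halved in BMDM over microglia, beside 8.61% and 5.66% of all genes tested. F13a1 was 14.9-fold higher in BMDM (5.60 to 55.8), Mrc1 8.65-fold (5.19 to 15.4) and Cbr2 2.99-fold (1.21 to 8.90). Cd93 was 17.3-fold higher against the floor, and the interval of its fold began at 13.7. The fifth was Lyve1 from 7 transcripts, and 4 members were doubled with genes at 0 set to the floor. Folr2 was the halved member, at 4.74 CPM in BMDM against 18.3 CPM in microglia (fold 0.259, 0.0830 to 0.697). The median log2 ratio was 0.97, or 0.78 with the floor, against 0.03 over all genes tested. Stab1 was 1.87-fold higher (1.39 to 2.53) and Msr1 1.51-fold (1.18 to 1.92). For Msr1 the direction depended on the setting, with log2 ratios of 0.57 as counted, -0.08 with every well weighted alike, -0.43 after thinning and 1.07 without wells marked by the dendritic list. Without wells under 1000 CPM of Malat1, Folr2 (-0.83) was no longer halved and Cbr2 (0.91) no longer doubled.

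**Figure D2:**
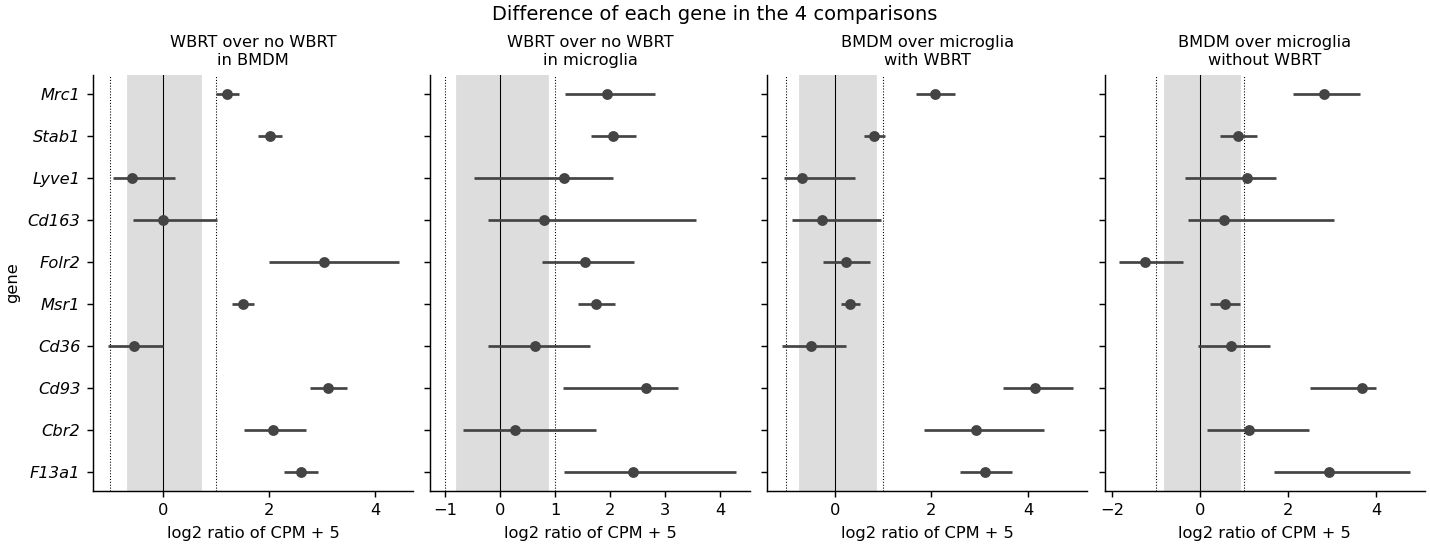
Log2 ratio of CPM + 5 (x axis) of each gene in the 4 comparisons, with 95% counting intervals, dotted lines at a doubling and a halving and a grey band that leaves out the lowest 10% and the highest 10% of all genes tested. Cd93, F13a1 and Mrc1 lie right of the doubling line in every panel, and Stab1, Folr2 and Msr1 in the 2 WBRT panels only.

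Wells were then split by Ccr2 and Tmem119. Irradiated BMDM had 108 wells with Ccr2 alone, 97 with both, 21 with Tmem119 alone and 36 with neither, and unirradiated BMDM had 78, 25, 31 and 100 in the same order. Median transcripts per well were 8146, 10929, 9812 and 3949 with WBRT and 4491, 6699, 5674 and 3007 without it. After thinning to equal depth the classes held 107, 10, 17 and 128 wells with WBRT, and 55, 4, 13 and 162 without it. The classes thus depended on depth and are not taken for cell populations. With WBRT 8, 6, 7 and 6 members were doubled in the classes as counted, beside 8.71%, 11.1%, 12.8% and 11% of all genes tested. Halved members were 0, 0, 0 and 1 (Cd163), beside 6.12%, 6.11%, 10.5% and 15.2%. Cd163 was also among the 8 doubled with Ccr2 alone, from 12 against 1 transcripts (interval of the fold 0.805 to 233). Its halving rested on 1 against 6 transcripts (0.00686 to 2.60), so neither call was resolved. The median log2 ratios were 1.87, 1.40, 2.01 and 1.74 with genes at 0 set to the floor, which left the counts as they were (3.15 without the floor in wells with Tmem119 alone). In wells with Ccr2 alone, Stab1 had 443 against 87.2 CPM, Cd93 547 against 80.3 CPM and Mrc1 394 against 140 CPM. In wells with both markers Mrc1 had 270 against 282 CPM (fold 0.960, 0.730 to 1.28), while Stab1 had 610 against 197 CPM, F13a1 497 against 112 CPM and Cd93 620 against 107 CPM. Mrc1 was thus the only one of the 7 members doubled over the whole plate that was not doubled in that class. In the small class with Tmem119 alone, Mrc1 had 603 against 40.4 CPM and F13a1 389 CPM against 1 transcript.

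At 1000 UMIs per well the members differed in how they went with Ccr2 in irradiated BMDM. Ccr2 was in 58.1% of the 86 wells with Cd93 (47.0% to 68.7%) and in 38.1% of the 176 without it (30.9% to 45.7%). Wells with Stab1 ran the other way, with Ccr2 in 34.8% of 89 (25.0% to 45.7%) against 49.7% of the 173 without it (42.0% to 57.4%). For Mrc1 it was 36.8% of 68 against 47.4% of 194. In unirradiated BMDM Ccr2 was in 53.8% of the 13 wells with Cd93 and 16.0% of the 25 wells with Stab1, the same order with wider intervals. On both BMDM plates Ccr2 was thus more often found in wells with Cd93 than in wells with Stab1, and only for Cd93 in irradiated BMDM were the shares with and without the gene clear of each other in their intervals.

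Members also parted in irradiated microglia, where 75 wells had Tmem119 alone, 74 had neither marker and 2 had Ccr2 alone. Of the Mrc1 transcripts of the plate 74.6% lay in wells with neither marker, as did 73.3% of F13a1 and 58.8% of Cd93, beside 33.6% of all transcripts. For Folr2, Cd36 and Msr1 the share was 56.1%, 50% and 49.0%. Mrc1, F13a1 and Cd93 had only 55, 30 and 17 transcripts on this plate. Of each, 50% lay in 5, 4 and 4 wells, so a few wells weigh heavily in these shares. Of Stab1, 62.8% lay in wells with Tmem119, close to the 65.6% of all transcripts that those wells held. In wells with neither marker Mrc1 had 188 CPM (135 to 255) with WBRT, against 16.4 CPM (1.99 to 59.2) without it. In wells with Tmem119 it had 25.8 against 18.6 CPM (fold 1.39, 0.570 to 3.29). Stab1 had 305 against 75.7 CPM in wells with Tmem119 (fold 4.03, 2.93 to 5.60) and 344 against 57.4 CPM in wells with neither. Msr1 was also higher with WBRT in both classes. It had 303 against 106 CPM in wells with Tmem119 (fold 2.85, 2.14 to 3.81) and 582 against 172 CPM in wells with neither. With WBRT its intervals in these classes (253 to 360 CPM and 485 to 692 CPM) did not overlap, while those of Stab1 did. With genes at 0 on 1 plate set to the floor of 3 counts, 3 members were doubled in Tmem119 wells (Stab1, Folr2 and Msr1, median 0.88), beside 8.05% of all genes tested doubled and 6.75% halved. In wells with neither, 5 were doubled (these and Mrc1 and F13a1, median 1.16), beside 17.8% doubled and 17.8% halved, and 0 members were halved in either class. Left at 0, the counts were 5 and 8 and the medians 0.99 and 2.48. The wells with neither marker were shallower, at a median of 2270 transcripts with WBRT and 2185 without, against 4696 and 5443 in Tmem119 wells. At 1000 UMIs per well Mrc1 was in 4.55% of 44 wells with Tmem119 and 6.60% of 106 wells with neither marker, with overlapping intervals, and Msr1 in 15.9% (6.64% to 30.1%) and 34.0% (25.0% to 43.8%).

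**Figure D3:**
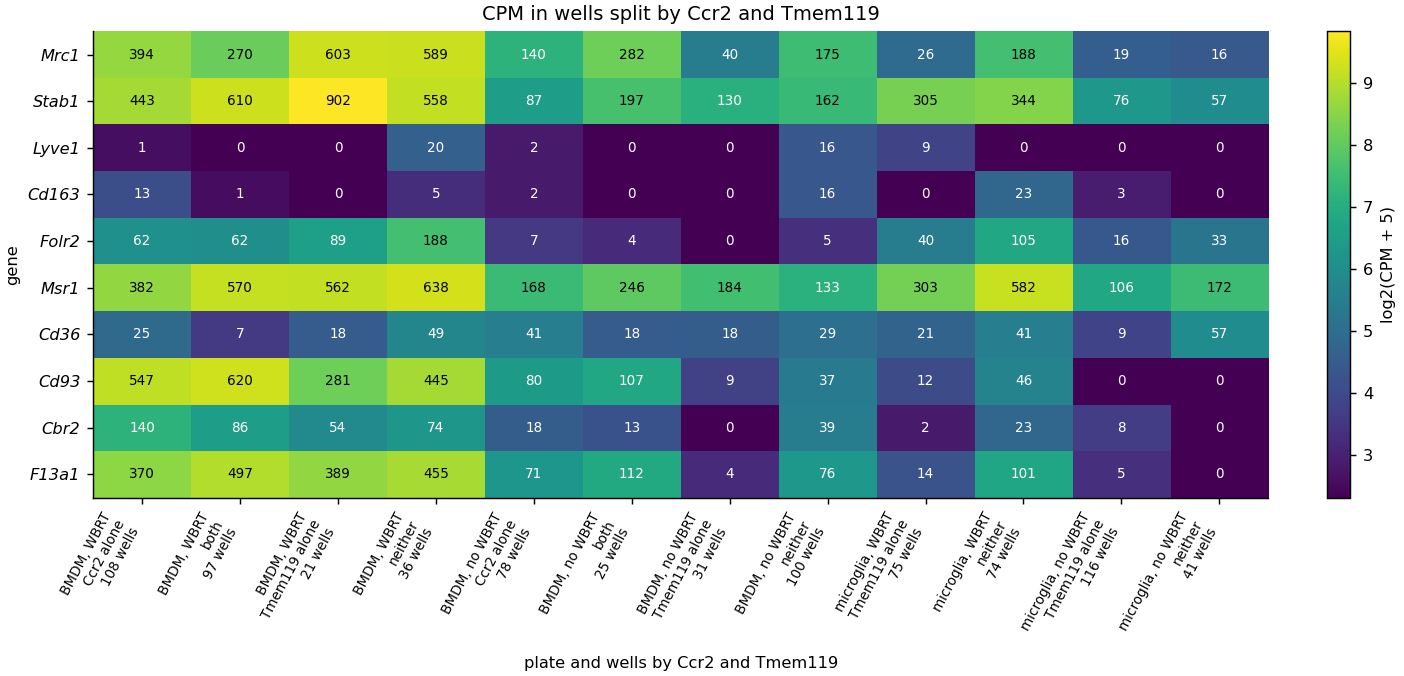
CPM of each gene in wells of each plate split by a UMI of Ccr2 and of Tmem119, for classes of at least 10 wells, with colour on a log2(CPM + 5) scale. In irradiated microglia Mrc1 reads 26 in Tmem119 wells and 188 in wells with neither marker, while Stab1 reads 305 and 344.

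Members were also counted together in each well. A well held at least 3 of the 10 in 82.4% of irradiated BMDM (77.3% to 86.8%), 19.7% of unirradiated BMDM (14.8% to 25.3%), 21.9% of irradiated microglia (15.5% to 29.3%) and 5.10% of unirradiated microglia (2.23% to 9.79%). At 1000 UMIs per well these shares were 28.2%, 4.27%, 6.62% and 0.637%, with intervals of 22.9% to 34.1%, 2.07% to 7.72%, 3.22% to 11.8% and 0.0161% to 3.50%. At equal depth irradiated BMDM thus lay clear of the other plates, whose intervals overlap, and a difference between the microglia plates was not resolved. Wells with none of the 10 made up 20.2%, 70.1%, 45.0% and 79.6% of thinned wells in the same order. The 15 irradiated microglia wells with at least 4 members included 7 with Pf4 (46.7%), against 12.5% of the other 136, and 6 with Tmem119. These are shares as counted, and the 15 wells were deeper, with a median of 5900 transcripts against 2486 in the other wells. Their median ERCC share was 17.9% against 31.2%. Their summed microglia markers were 4239 CPM, against 7754 CPM in the other wells, and 1 of the 15 held Ccr2.

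**Figure D4:**
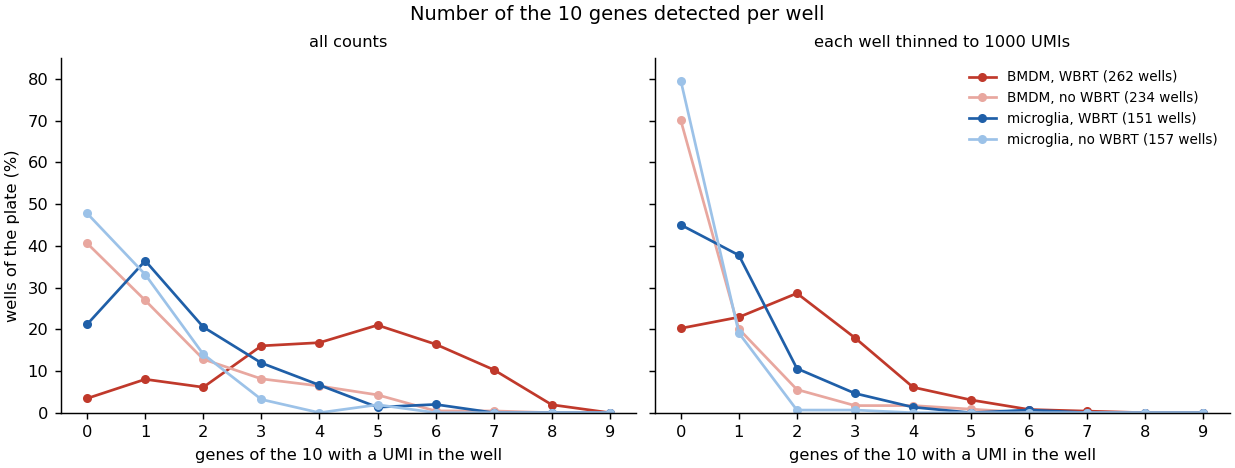
Share of wells (%) by the number of the 10 genes with a UMI, for all counts (left) and after thinning each well to 1000 UMIs (right), 1 line per plate. Irradiated BMDM peak at 5 genes per well with all counts and at 2 after thinning, and the unirradiated plates peak at 0 in both panels.

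Pairs of members were compared at 1000 UMIs per well within the BMDM plates. In irradiated BMDM Cd93 was in 47.9% of the 73 wells with F13a1 (36.1% to 60.0%) and in 27.0% of the 189 without it (20.8% to 33.9%). Msr1 was in 70.6% of the 17 wells with Folr2 (44.0% to 89.7%) and in 40.0% of the 245 others (33.8% to 46.4%). Stab1 and Cd93 showed no such difference, with Cd93 in 32.6% of the wells with Stab1 and 32.9% of those without it. In unirradiated BMDM 7 of the 12 wells with F13a1 held Stab1 and 6 held Mrc1, against 8.11% and 6.76% of the other 222 wells. No well of the 21 with Mrc1 held Cd93 there (0%, interval to 16.1%).

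**Figure D5:**
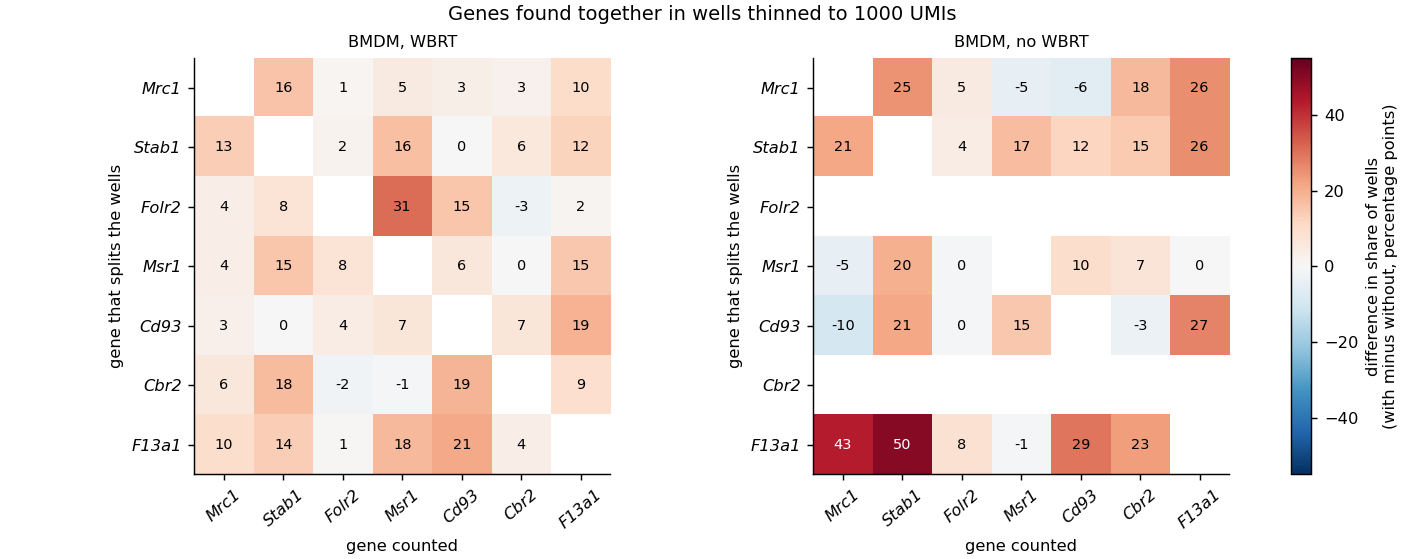
Difference in the share of wells (percentage points) that hold the column's gene, wells with minus wells without the row's gene, after thinning to 1000 UMIs, for BMDM with WBRT (left) and without (right), blank where the row's gene is in under 10 wells. Most squares are above 0, with the largest values for F13a1 with Stab1 and Mrc1 in unirradiated BMDM.

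The genes whose thinned level per well went most closely with the sum of the 10 members included lysosomal genes and Apoe on each plate with enough wells. In irradiated BMDM (262 wells) Pearson's r was 0.44 for the cathepsin gene Ctsb, 0.43 for Lyz1 and 0.38 for Apoe. Sepp1, Ftl1, Ctsd, Gas6, Fcgr2b, Myo5a and Cd38 came next, between 0.27 and 0.37. In unirradiated BMDM (234 wells) Trf had 0.40, Ctsb 0.38 and Csf1r 0.38, followed by Lyz1, Ssh2, Maf, Apoe, Cd14, Fcgr2b and Ccl12. In irradiated microglia (151 wells) Lyz1 had 0.43, Ctsb 0.39, Lyz2 0.36 and Apoe 0.35, followed by Ftl1, Lipa, Ctsd, Vapa, Slc40a1 and Spp1. Ctsb, Lyz1 and Apoe were thus among the first 10 on all 3 plates. Wells of a plate share a library and a depth of 1000 UMIs, so these values describe the plates and carry no test. In unirradiated microglia fewer than 50 wells held a member after thinning, and no such list was made.

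Markers of other cells that express some of these genes were measured beside them. Endothelial cells carry Cd93, Cd36 and Stab1, and 11 of 12 endothelial markers were measured, of which 8, 7, 4 and 7 had a count on the plates of irradiated BMDM, unirradiated BMDM, irradiated microglia and unirradiated microglia. Their sum was 68.8, 64.8, 57.0 and 62.9 CPM in that order. Emcn was at 0 on all 4 plates, and Pecam1, which myeloid cells also express, made up 52.9, 28.4, 49.3 and 50.3 CPM of the sums. Wells with at least 3 members had lower endothelial sums than the other wells on every plate, at 64.7 against 101 CPM in irradiated BMDM. In irradiated microglia it was 31.1 against 67.9 CPM and in unirradiated microglia 23.3 against 67.2 CPM. There only 33 and 8 wells held at least 3 members, so these sums rest on few transcripts. Of 8 platelet markers, which matter for F13a1 and Pf4, 4 to 6 had a count on a plate, with sums of 16.7, 13.4, 35.4 and 70.9 CPM. Itgb3 made up 23.1 and 57.2 CPM of the sums in irradiated and unirradiated microglia, and Ppbp and Clec1b had 5 transcripts each in irradiated BMDM and 0 on the other plates. The part of endothelial cells and platelets in these levels was not tested. Dendritic markers summed to 184 and 1804 CPM in irradiated and unirradiated BMDM, and were lower in wells with at least 3 members (110 against 756 CPM with WBRT, 428 against 2429 CPM without). Summed monocyte markers, of which Ccr2 is 1, were 1240 and 1156 CPM in irradiated and unirradiated BMDM. These sums combine 969 against 389 CPM of Ccr2 with 254 against 698 CPM of Plac8 and 1.99 against 45.1 CPM of Ly6c2.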

How the data were processed

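Single cells were sorted into 384-well plates, and libraries followed a published plate method named in the labels' protocols, which counts transcripts by UMIs at the 3′ end. The deposited values are estimated counts (expected counts) per gene and well, which the authors did not normalize by length or depth. All nonzero values (100%) lay within 0.0051 of whole UMIs corrected for 4096 identifiers. The genome build was GRCm38 per the submitters' processing notes, with the aligner, counter and annotation not given in the sources used here. Wells with at least 1000 counts outside ERCC and mitochondrial rows and an ERCC share under 50% were kept. Counts were summed per plate and divided by all counts other than ERCC to give CPM. Intervals are exact (Poisson, conditional binomial for folds, Clopper-Pearson for shares, 95%) from scipy 1.17.1 and numpy 2.4.6, with counts rounded to whole numbers. They treat transcripts as independent. Log2 ratios use CPM + 5, so differences of low genes are understated. The fold computation was tested on simulated data with 200 changed genes. Named genes were the 10 members, Ccr2, Tmem119, up to 6 genes per list and comparison with the largest ratios, leading markers, and the 10 genes most alike per plate. The members and lists were chosen with earlier results of these data known. TMM factors came from edgeR 4.0.16.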

Additional observations from a re-analysis of the deposited data

Results flagged for a closer look

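Cd36 and Lyve1 differed in direction between the sorts. The log2 ratio of CPM + 5, WBRT over no WBRT, was -0.55 in BMDM and 0.64 in microglia for Cd36, and -0.59 in BMDM and 1.16 in microglia for Lyve1. Each sort is 1 plate per treatment, so the difference between the sorts was not tested. Cd36 had 46 and 37 transcripts in irradiated and unirradiated BMDM and 18 and 14 in irradiated and unirradiated microglia, and Lyve1 had at most 7 transcripts on a plate.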

How the results depend on the processing

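No paired analysis was possible because each group is 1 plate. The main settings were changed in 12 ways, plus 1 chosen after seeing the data (leaving out wells with Kcnq1ot1 of at least 10000 CPM). Of 156 values for the counts and medians of the 10 members, 134 stayed near the main value. The cause was not tested for the others, which follow. For WBRT in BMDM the halved members were 1 instead of 0 with wells weighted alike, with thinning, with a pseudocount of 1 CPM and without wells under 1000 CPM of Malat1, and 2 without dendritic-marked wells. The median there was 1.30 without dendritic-marked wells and 2.05 over members of at least 20 CPM alone. For WBRT in microglia, leaving out wells under 1000 CPM of Malat1 gave 4 doubled members and a median of 0.70. For BMDM over microglia with WBRT the halved members were 1 with at least 3000 counts per well, wells weighted alike, thinning, a pseudocount of 1 CPM, and without dendritic-marked wells. The median there was 1.03 with at least 3000 counts, 1.45 over members of at least 20 CPM and 1.20 without wells low in Malat1, which also gave 7 doubled members. For BMDM over microglia without WBRT, 3 members were doubled with at least 3000 counts per well. The median was 1.73 with thinning and 1.54 without dendritic-marked wells, and 0 members were halved without wells low in Malat1. No doubled or halved member changed sign in these alternatives. Per member, 36 of 512 values crossed the doubling or halving line, most of them of Lyve1, Cd163 and Cbr2. Lyve1 and Cd163 are limited by depth, with at most 14 transcripts on a plate.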

Other observations

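The clearance gene Timd4, which encodes a phosphatidylserine receptor of resident macrophages, was higher in BMDM than in microglia with and without WBRT. It had 49.8 CPM in BMDM against 0 CPM in microglia with WBRT, and 61.6 against 2.29 CPM without it. Clec12a and Clec10a, C-type lectins of myeloid cells, ran the same way, with 86.4 against 6.16 CPM and 50.2 against 1.54 CPM in BMDM over microglia with WBRT, and 67.2 against 0 CPM and 87.8 against 2.29 CPM without it. Timd4, Clec12a and Clec10a were not doubled with WBRT in BMDM, unlike 7 of the 10 members. Mertk and Scarf2, in contrast, were lower in BMDM than in microglia without WBRT, at 14.2 against 36.6 CPM and 5.53 against 27.4 CPM. With WBRT Mertk was lower in BMDM too, at 39.0 against 86.3 CPM, while Scarf2 had 2.79 against 3.08 CPM.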
